A study of Mus musculus with 2 samples.

Results

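The insulin-like growth factor axis was followed across cell classes of the mouse uterus through 10 genes: the ligands Igf1 and Igf2, the receptors Igf1r and Igf2r, and the binding proteins Igfbp2, Igfbp3, Igfbp4, Igfbp5, Igfbp6 and Igfbp7. The members were taken by symbol, and all 10 were present among the 32285 genes listed in both libraries. Whole uteri of mice aged 6 months were dissociated with enzymes and profiled by droplet-based single-cell sequencing of transcript 3′ ends. The control group was Prickle1 f/f, that is, both groups carried the floxed Prickle1 allele. The other group was Prickle1 f/f Ltf-cre, called Ltf-iCre in the description of the design, in which the Cre recombinase is driven from the lactoferrin gene, whose transcription in the uterus is epithelial. It is called cKO (conditional knockout) below. Uteri of 3 mice were pooled into 1 library per group, so no difference has a replicate check. A separate genotype entry reads C57BL/6J wild-type for both libraries, which differs from the titles, and the titles were followed. The genotype cannot be told apart from the animals, the dissociation or the library.

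Igf1 and Igf2 are secreted growth factors that act through Igf1r, a receptor tyrosine kinase, whereas Igf2r takes Igf2 into the cell for degradation. The Igfbp proteins bind the ligands outside the cell and, depending on the context, hold them in reserve or deliver them. In the uterus Igf1 is known as a product of the stroma that rises under oestrogen and acts on the epithelium next to it.

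Barcodes counted as cells when 500 genes or more were detected and mitochondrial counts stayed within 20%. This gave 3653 control cells with a median of 4650 unique molecular identifiers (UMIs, each a counted transcript) and 4950 cKO cells with a median of 5944. Classes were gated by at least 1 UMI of a single gene with the other 4 gate genes at 0: Epcam for epithelial (953 control and 109 cKO cells), Pdgfra for stromal (631 and 1513), Actg2 for muscle (291 and 546), C1qa for macrophage (234 and 116) and Msln for mesothelial cells (26 and 35). The gates left 37.2% of control and 49.2% of cKO cells in no class. Of the 8 further markers listed for each class, 7 or 8 were highest in their own class in both libraries, and none was at 0 there. The mesothelial gate also carried stromal markers at 10496 and 12875 CPM (the count scaled to a common total for each class and library). This is close to the 12580 and 13200 CPM of the stromal gate. Which cells these transcripts came from was not tested, so the levels are those of the gate and may not be those of mesothelial cells alone. Barcodes with at most 100 UMIs served as the cell-free profile. A further gate on Cd3e gave 123 control and 354 cKO T cells, which had at most 12.7 CPM of Igf1 and of each binding protein in either library. The cells of both libraries shared 5 barcodes. The targeted gene, Prickle1, had 14 UMIs (0.827 CPM) in control and 4 UMIs (1.28 CPM) in cKO epithelial cells, at a ratio of 1.54 (0.370 to 4.92), so no loss was detectable at this depth. In stromal cells it had 31 UMIs in control and 234 in cKO, at a ratio of 2.32 (1.59 to 3.50). Reads of 3′ ends show a deletion only where it takes in the 3′ end, and the deleted exons are not given in the sources used here, so these counts check neither label. Ltf, the lactoferrin gene whose control region drives the Cre, stood at 1543 CPM in control and 139 CPM in cKO epithelial cells.

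The 3 genes that differed by over 2-fold in stromal cells are located first, because their values carry most of the comparison below. Igf1 (ENSMUSG00000020053) is on chromosome 10 of GRCm38 (87858265 to 87937042, plus) and overlaps Igf1os on the other strand. Igfbp4 (ENSMUSG00000017493) is on chromosome 11 (99041244 to 99054392, plus). Igfbp3 (ENSMUSG00000020427) is on the same chromosome (7206086 to 7213923, minus). Promoter sequences were taken from RefSeq (GRCm38.p6), which held an entry for 10 of 10 members. The 250 bases before the start are shown 5′ to 3′ for the binding proteins that differed in opposite directions, with a match to a searched motif in capitals. The Igf1 window is not shown, as all 250 of its bases lie in annotated exons.
Igfbp4, plus strand, chr11:99040994-99041243: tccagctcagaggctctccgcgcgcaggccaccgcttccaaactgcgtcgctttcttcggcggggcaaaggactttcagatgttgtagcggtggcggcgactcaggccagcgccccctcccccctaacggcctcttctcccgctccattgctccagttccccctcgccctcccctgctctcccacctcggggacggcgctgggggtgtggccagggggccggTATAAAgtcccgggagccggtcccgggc
Igfbp3, minus strand, chr11:7213924-7214173: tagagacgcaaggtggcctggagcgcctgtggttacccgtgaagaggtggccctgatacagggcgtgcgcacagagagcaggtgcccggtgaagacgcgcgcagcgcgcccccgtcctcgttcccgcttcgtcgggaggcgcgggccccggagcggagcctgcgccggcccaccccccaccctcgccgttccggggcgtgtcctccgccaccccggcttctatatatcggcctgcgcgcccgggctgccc
The motifs searched on both strands were TATAAA (the TATA box), GGGCGG (a GC box), TGANTCA (an AP-1 site), GTAAACA (a forkhead site) and the palindromic oestrogen response element, GGTCA and TGACC set 3 bases apart. These letters occur in 12.4%, 32.7%, 6.75%, 3.17% and 0.0639% of all 32851 promoter windows. The Igfbp4 window held TATAAA, 28 bases before the start, and none of the other 4 motifs. The Igfbp3 window held none of the 5 as spelled. Its printed letters do include a run of alternating t and a near their end. Other spellings of the TATA box were not searched. The Igfbp4 and Igfbp3 windows are thus not shown to differ in having this element. The Igf1 window held TGANTCA once. No member window held the forkhead site or the oestrogen response element. A match is a description of the letters and not evidence of binding.

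Igf1 was higher in the stroma of the cKO library. It had 228 CPM (95% interval 218 to 239) in control stromal cells and 639 CPM (629 to 649) in cKO stromal cells, at a ratio of 2.80 (2.67 to 2.94). The intervals are exact Poisson intervals for levels and exact conditional binomial intervals for ratios, and they cover counting error only. More cells carried the gene: with each cell thinned to 1000 UMIs, 15.5% (12.7 to 18.5) of control and 32.7% (30.3 to 35.1) of cKO stromal cells had an Igf1 UMI. Without thinning, 37.9% and 65.9% of cells had one, from a median of 11923 and 15878 UMIs per cell. In T cells the thinned shares were 0 of 121 cells, which allows up to 2.48%, and 0.570%, which serve as the background level. The cell-free profile held 73.3 CPM of Igf1 in control and 344 CPM in cKO, below the stromal level of the same library in both and higher in cKO, as in the stroma. With cell-free RNA subtracted at 5% of each class total, the stromal log2 ratio was 1.47, against 1.49 without.

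Outside the stroma, Igf1 was highest in mesothelial-gated cells, with 1164 CPM in control against 1877 CPM in cKO, 1.61-fold higher (1.40 to 1.86). Muscle cells came next in control with 420 CPM and reached 628 CPM in cKO, at a ratio of 1.50 (1.32 to 1.70). In cKO the stromal and muscle intervals overlapped, whereas in control muscle was 1.84-fold above stroma (1.63 to 2.07). Macrophages had 175 CPM in control against 154 CPM in cKO, with a ratio of 0.876 (0.727 to 1.05) whose interval holds 1. The cKO macrophage level lay below the cell-free level of its library. Epithelial cells had 3.37 CPM in control against 18.8 CPM in cKO, the lowest of the 5 classes in each library and far below both cell-free levels.

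Igf2, the imprinted fetal growth factor, was close to the limit of detection in all 5 classes. Its place is chromosome 7 (142650766 to 142666816, minus). In stromal cells it had 15 UMIs (1.82 CPM) in control and 40 UMIs (1.49 CPM) in cKO, at a ratio of 0.821 (0.443 to 1.60). Its highest level among the 5 classes was in mesothelial-gated cells, 8.06 CPM from 2 UMIs and 8.21 CPM from 3 UMIs, with no fold given at these counts. The gene overlaps Gm49394 and Mir483 on the same strand, and Igf2os on the other, so its few reads are of uncertain origin.

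**Figure D1:**
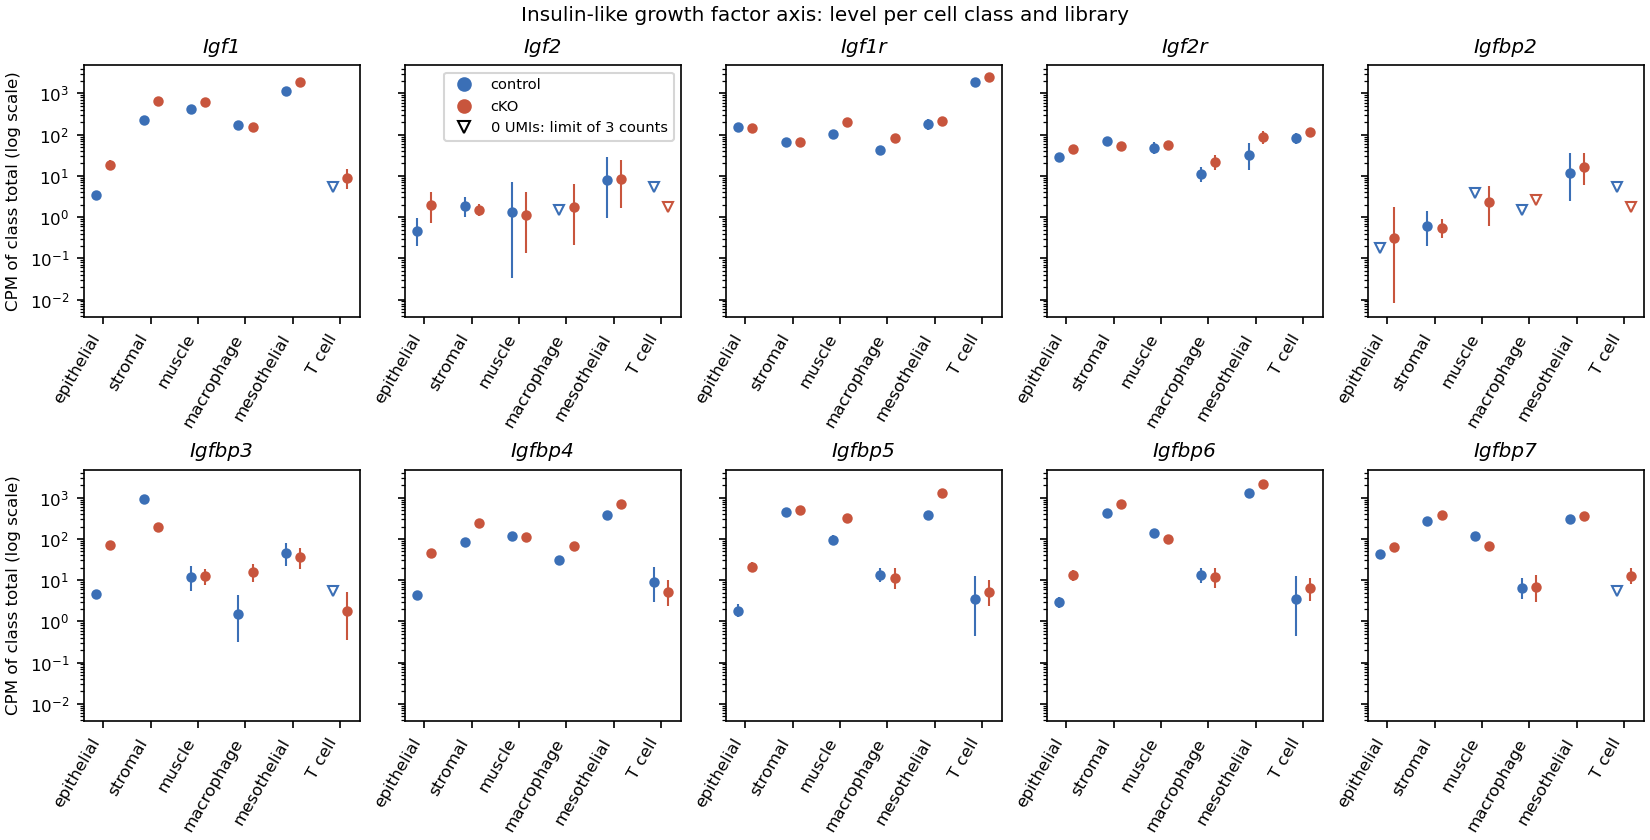
Level of each of the 10 genes in CPM of the class total (vertical log axis) in the 5 classes and in Cd3e T cells, for the control and cKO libraries, with 95% Poisson intervals of counting error; open triangles mark 0 UMIs at the limit of 3 counts. Igf1r stands at 1853 and 2547 CPM in T cells, while Igfbp3 is highest in stromal cells of both libraries at 920 and 198 CPM.

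The receptor Igf1r, on the same chromosome as Igf2 (67952827 to 68233668, plus), had ratios between libraries whose intervals hold 1 in stromal and epithelial cells. In stromal cells it had 65.5 CPM (60.1 to 71.3) in control and 67.7 CPM (64.7 to 70.9) in cKO, at a ratio of 1.03 (0.939 to 1.14). In epithelial cells it was higher, at 156 CPM in control against 148 CPM in cKO, with a ratio between libraries of 0.949 (0.858 to 1.05). Epithelial cells thus had 2.38-fold (2.17 to 2.61) the stromal level in control and 2.18-fold (1.97 to 2.42) in cKO. With each cell thinned to 1000 UMIs this order held in control, at 118 CPM epithelial and 78.9 CPM stromal, and turned round in cKO, at 64.2 CPM from 7 of 109 epithelial cells against 83.2 CPM stromal. The epithelial log2 ratio between libraries was -0.88 after thinning, -0.61 with TMM factors and -0.63 with median-of-ratios factors, against -0.08 as reported. Without thinning, the epithelial levels lay above the cell-free levels of 62.5 and 98.9 CPM, and the stromal level of cKO lay below its cell-free level. In muscle cells Igf1r had 103 CPM in control against 206 CPM in cKO, at a ratio of 1.997 (1.56 to 2.58), just inside the 2-fold limit. Its log2 ratio of 1.00 was 0.46 after thinning, 0.32 with cells averaged and 0.23 with gates not exclusive, and the thinned shares of muscle cells with a UMI were 7.85% and 7.95%. Macrophages had 43.3 CPM in control against 81.1 CPM in cKO, both below the cell-free level. An Igf1r UMI was seen in 18.4% of control and 10.3% of cKO macrophages, and in 2.60% and 3.48% after thinning. In cKO 1 cell held 26.6% of the UMIs. The macrophage log2 ratio ran from -0.28 to 2.29 over 13 alternatives.

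Igf1r was highest in T cells. It had 1853 CPM (1742 to 1969) in control T cells and 2547 CPM (2472 to 2624) in cKO T cells, 1.37-fold higher (1.28 to 1.47). The next class of the 5, the mesothelial gate, had 177 and 216 CPM, and T cells lay 10.5-fold (7.73 to 14.5) and 11.8-fold (9.43 to 14.9) above it. The mesothelial interval overlapped that of epithelial cells in control and of muscle cells in cKO. In cKO 1 cell held 55.7% of the mesothelial Igf1r UMIs. Igf1r was the 1 member at least 2-fold above each of the 5 classes in T cells, where 8.75% of tested genes met this in control and 7.81% in cKO. A split of Cd3e cells by Trdc, a constant chain of the gamma delta T cell receptor, was chosen after these values were seen. It left out cells with any of the 5 gate genes but, unlike the T cell gate, kept cells with a Pecam1 UMI, so its cells outnumber those of the T cell gate. Trdc+ T cells had 3137 CPM of Igf1r in control (69 cells) and 3092 CPM in cKO (292 cells), at a ratio of 0.986 (0.917 to 1.06). Trdc- T cells had 676 CPM (70 cells) and 519 CPM (104 cells), at a ratio of 0.768 (0.647 to 0.913). Neither part was thus higher in cKO, unlike the T cell gate, and Trdc+ cells outnumbered Trdc- cells in cKO only. The part of this mix in the T cell ratio was not tested. Within each library the Trdc+ level was 4.64-fold (4.02 to 5.38) and 5.96-fold (5.31 to 6.71) the Trdc- level, a difference of at least 2-fold met by 10.2% and 13.9% of tested genes. After thinning, 88.2% of control and 89.0% of cKO Trdc+ cells had an Igf1r UMI, against 20.3% and 11.9% of Trdc- cells. Without thinning these shares were 95.7% and 97.9% against 31.4% and 22.1%. Ncr1-gated natural killer cells (19 and 39 cells) had 15 and 34 UMIs of Igf1r (96.2 and 94.6 CPM), of which 1 cell held 93.3% in control and 47.1% in cKO. Summed NK markers in this gate stood at 2534 CPM in control and 904 CPM in cKO. Summed dendritic markers there stood at 89.8 and 1454 CPM, so the make-up of the gate differed between libraries.

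Igf2r, the cation-independent mannose phosphate receptor that clears Igf2, is on chromosome 17 (12682406 to 12769664, minus). Stromal cells had 69.6 CPM in control against 53.9 CPM in cKO, at a ratio of 0.774 (0.702 to 0.854). Epithelial cells had 29.0 and 45.0 CPM, at a ratio of 1.55 (1.28 to 1.87), against cell-free levels of 31.4 and 38.1 CPM. Its epithelial log2 ratio of 0.63 ran from 0.08 to 0.85 over 13 alternatives, where the median of all tested epithelial genes was 0.41. In mesothelial-gated cells it rested on 8 control and 32 cKO UMIs, 32.2 and 87.6 CPM, at a ratio of 2.72 (1.23 to 6.83). The gene overlaps Airn on the other strand, and the sources used here do not say whether counting used strand, so reads of the pair cannot be told apart. The same limit holds for Igf1 with Igf1os, for Igf2 with Igf2os and for Igfbp7 with Polr2b and Gm34648.

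Among the binding proteins the largest stromal difference was in Igfbp3, the main carrier of these ligands in blood. Control stromal cells had 7600 UMIs of it, 920 CPM (900 to 941), and cKO stromal cells 5315 UMIs, 198 CPM (193 to 203). The ratio was 0.215 (0.208 to 0.223), a log2 value of -2.22. After thinning to 1000 UMIs, 37.0% (33.2 to 41.0) of control and 11.9% (10.3 to 13.7) of cKO stromal cells had a UMI, and before thinning 64.5% and 37.3%. In T cells the thinned shares were 0 of 121 cells, which allows up to 2.48%, and 0.285%. Stroma was the highest of the 5 classes in both libraries, 20.8-fold above the next class in control (11.6 to 41.6) and 2.79-fold in cKO (2.44 to 3.21). The cKO cell-free profile held 80.5 CPM and the control profile 93.5 CPM.

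Igfbp4, which binds ligand until it is cut by the protease Pappa, differed the other way. It had 83.3 CPM (77.2 to 89.8) in control against 247 CPM (241 to 253) in cKO stromal cells, at a ratio of 2.96 (2.74 to 3.21). The thinned share of stromal cells with a UMI was 8.21% in control and 16.4% in cKO, against 39.0% and 60.4% before thinning. No T cell had a UMI after thinning, which allows up to 2.48% and 0.855%. Cell-free levels were 34.1 and 154 CPM, and with them subtracted in the same way the log2 ratio was 1.55, against 1.57 without. Muscle cells had 119 and 111 CPM, at a ratio of 0.929 (0.720 to 1.20), so the control order of muscle above stroma was turned round in cKO.

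Igfbp6, which prefers Igf2 as its ligand, had 416 CPM in control against 719 CPM in cKO stromal cells, at a ratio of 1.73 (1.67 to 1.79). Igfbp7, a relative that binds the ligands weakly, had 269 and 388 CPM, at a ratio of 1.44 (1.38 to 1.51). Igfbp5, which attaches to extracellular matrix, had 461 and 501 CPM, at a ratio of 1.08 (1.05 to 1.12). These 3 were higher in cKO beyond counting error but inside 2-fold. Igfbp6 lies on chromosome 15 (102144362 to 102149511, plus), Igfbp7 on chromosome 5 (77349240 to 77408041, minus) and Igfbp5 on chromosome 1 (72857932 to 72874884, minus). Igfbp2, on chromosome 1 as well (72824503 to 72852474, plus), was nearly absent, with 5 UMIs in control and 15 in cKO stromal cells. Its highest level was in the mesothelial gate, 12.1 CPM from 3 UMIs and 16.4 CPM from 6 UMIs.

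**Figure D2:**
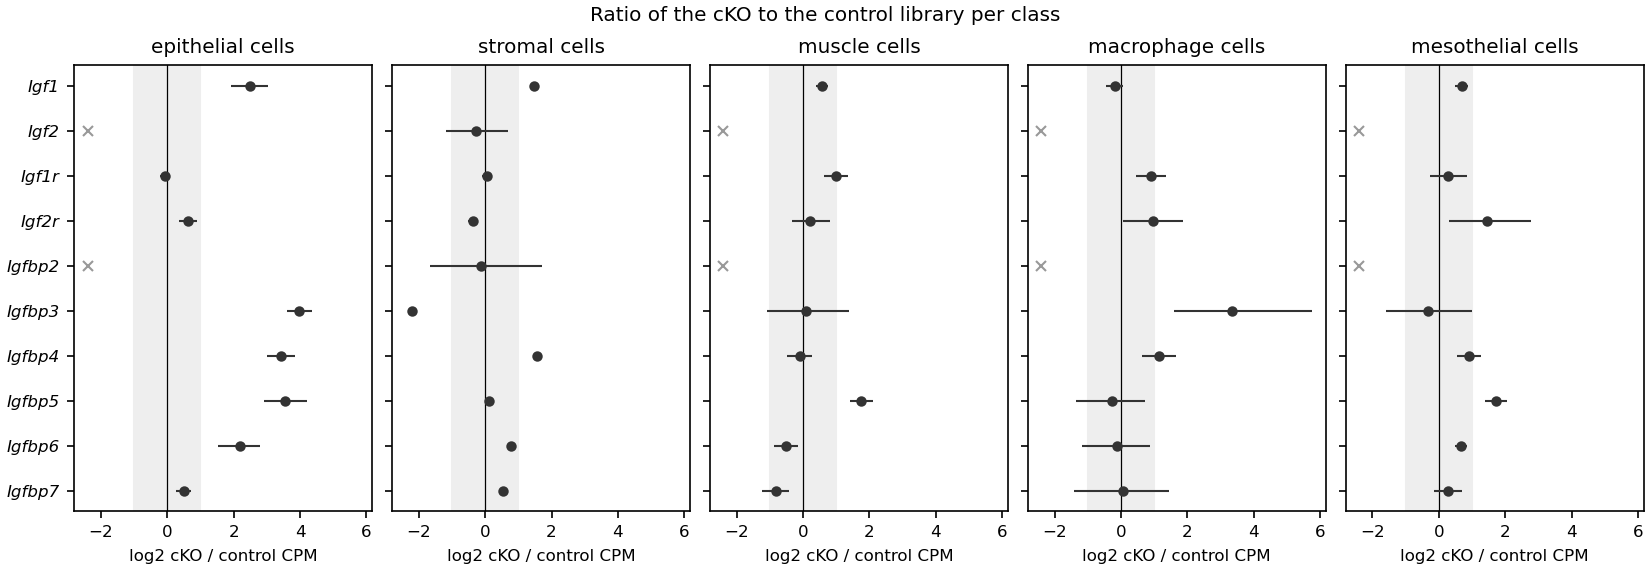
Log2 ratio of cKO to control CPM for each gene in the 5 classes, with 95% intervals of counting error; the grey band spans 2-fold either way, and a grey cross at the left edge marks a gene with under 20 UMIs over both libraries or at 0 in either. In stromal cells Igf1 and Igfbp4 lie to the right of the band and Igfbp3 to the left, at -2.22.

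With 20 UMIs over both libraries as the minimum, all 10 members could be counted in stromal cells, with Igf2 at 55 and Igfbp2 at 20 UMIs over both libraries. At least 2-fold higher in cKO were 2 members (Igf1 and Igfbp4), where 6.22% of 13707 tested genes were. At least 2-fold lower was 1 (Igfbp3), where 6.44% were. Together 3 of 10 members passed 2-fold, against 12.7% of tested genes. Markers of other types in the stromal gate were lower in cKO for the 4 lymphatic endothelial (63.7 and 16.1 CPM), the 8 epithelial (36.0 and 11.03 CPM) and the 8 macrophage markers (26.9 and 10.1 CPM), and higher for the 6 T cell markers (18.2 and 29.99 CPM), with none at 0. The part of these transcripts in the stromal ratios was not tested. The median log2 ratio (with 0.5 UMI added) was 0.08 over the members and -0.02 over all tested genes. The count of 3 was within 1.5 times under every alternative tried.

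Levels were then compared between classes within each library. In control, 8 of 9 members with enough counts were at least 2-fold higher in stromal than in epithelial cells, where 32.7% of tested genes were, and Igf1r was at least 2-fold lower. In cKO 6 of 9 were higher, where 20.9% of genes were, and Igf1r was again lower, an order that thinning turned round in cKO as given above. With gates that did not exclude the other gate genes, the cKO count was 2. Of the 5 classes, the mesothelial gate had the highest level for 6 of 9 members in control (24.9% of genes) and 8 of 10 in cKO (29.3%). The stromal gate had it for 3 in control (20.5% of genes) and 2 in cKO (15.9%). Some of these first places overlapped the next class in counting error. For the mesothelial gate these were Igf2 and Igf1r in both libraries, Igfbp7 in control and Igf2r in cKO. For the stromal gate they were Igf2r and Igfbp5 in control and Igfbp7 in cKO. Without the mesothelial gate, stroma was highest for 6 of 9 in control (27.7% of genes) and 6 of 10 in cKO (22.4%).

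In epithelial cells, the class in which the Cre is driven, 5 of 8 members with enough counts were at least 2-fold higher in cKO, where 26.3% of tested genes were, and none was at least 2-fold lower, where 10.8% of genes were. In either direction, 37.1% of genes passed 2-fold. These were Igf1, Igfbp3, Igfbp4, Igfbp5 and Igfbp6. Igfbp3 had 4.49 and 70.9 CPM, at a ratio of 15.8 (12.1 to 20.8), and 1 cKO cell held 36.0% of the 222 UMIs. With gates not exclusive its log2 ratio was 0.88, inside 2-fold, against 3.98. Igfbp4 had 4.25 and 45.3 CPM, Igfbp5 1.83 and 21.4 CPM, and Igfbp6 2.89 and 13.1 CPM. Each of these levels lay below the cell-free level of its own library, which for cKO was 80.5 CPM of Igfbp3, 154 CPM of Igfbp4, 249 CPM of Igfbp5 and 340 CPM of Igfbp6. No share of cell-free RNA was measured in these cells, and its part in these levels was not tested. Markers of other cell types differed as well between the epithelial cells of both libraries. The 8 stromal markers, none of them at 0, summed to 190 CPM in control and 495 CPM in cKO, and the 8 muscle markers to 52.5 CPM (none at 0) and 552 CPM (1 at 0). The 4 lymphatic endothelial markers summed to 2.13 and 105 CPM and the 6 T cell markers to 6.55 and 44.0 CPM, none at 0 in either library. Lower in cKO were the 8 macrophage markers, at 72.5 CPM (none at 0) and 21.4 CPM (2 at 0), and the 8 mesothelial markers, at 1720 CPM (none at 0) and 801 CPM (2 at 0). Their part in the result was not tested. Median depths were 6195 UMIs in control and 12093 in cKO. Igfbp7 had 44.2 and 62.2 CPM, at a ratio of 1.41 (1.20 to 1.65), under cell-free levels of 55.9 and 141 CPM. Its log2 ratio of 0.50 ran from -0.05 to 1.32 over 13 alternatives.

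In muscle cells Igfbp5 was the 1 member of 8 past 2-fold, where 12.6% of tested genes passed it in either direction and 8.9% were higher. It had 96.8 CPM in control against 326 CPM in cKO, at a ratio of 3.37 (2.64 to 4.35). The cell-free levels were 81.1 and 249 CPM, higher in cKO as well. The 4 lymphatic endothelial markers summed to 14.4 CPM in control (3 at 0) and 225 CPM in cKO (none at 0) in the muscle gate, and the 6 T cell markers to 28.8 CPM (3 at 0) and 101 CPM (none at 0). Lower in cKO there were the 6 endothelial markers, at 180 CPM (1 at 0) and 69.7 CPM (none at 0), and the 8 epithelial markers, at 268 CPM (none at 0) and 23.2 CPM (2 at 0). The part of these in the result was not tested. The count fell to 0 when cells were averaged with equal weight or thinned to 1000 UMIs. Igfbp7 had 120 CPM in control against 68.0 CPM in cKO, at a ratio of 0.565 (0.427 to 0.750), with 66.3% of the control UMIs in 1 cell. Igfbp6 had 143 and 99.7 CPM, at a ratio of 0.700 (0.548 to 0.897). Over 13 alternatives the muscle log2 ratio ran from -0.98 to 1.00 for Igfbp7 and from -0.98 to 0.92 for Igfbp6. The direction of both thus turned with the processing.

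In macrophages 2 of 8 members were at least 2-fold higher in cKO, where 12.6% of tested genes were higher and 16.6% passed 2-fold either way. Igfbp4 had 30.7 and 68.1 CPM, at a ratio of 2.22 (1.57 to 3.15), below the cKO cell-free level. Its log2 ratio of 1.15 fell inside 2-fold with TMM factors (0.87), median-of-ratios factors (0.85), the gate gene with most UMIs (0.98) and gates not exclusive (0.20). Igfbp3 had 3 UMIs in control and 18 in cKO, with 72.2% of the latter in 1 cell, and its direction reversed with gates not exclusive (log2 ratio -0.36). Summed markers of some other types were higher in the same gate: 64.9 CPM in control against 323 CPM in cKO for the 4 lymphatic endothelial, 9.06 against 276 CPM for the 4 mast cell and 37.3 against 136 CPM for the 6 endothelial markers, of which 1 endothelial marker was at 0 in control. Stromal markers (231 and 159 CPM), epithelial markers (76.5 and 20.7 CPM) and NK markers (83.1 and 21.6 CPM) were lower in cKO. Their part in the result was not tested. In the mesothelial gate 2 of 8, Igf2r and Igfbp5, were at least 2-fold higher, where 14.3% of genes were higher and 18.3% passed 2-fold either way. The Igf2r log2 ratio of 1.44 ran from 0.76 to 1.67 over 13 alternatives, so it did not always pass 2-fold. Igfbp5 had 391 CPM in control against 1278 CPM in cKO, at a ratio of 3.27 (2.62 to 4.11). Igfbp4 had 375 and 700 CPM there, and Igfbp6 1333 and 2107 CPM. These levels rest on 26 and 35 cells. Among the endothelial markers, summed levels of 28.2 CPM in control (4 of 6 markers at 0) against 709 CPM in cKO (none at 0) were found in the same gate. The 4 lymphatic endothelial markers summed to 4.03 CPM (3 at 0) and 405 CPM (none at 0) there, and the 6 T cell markers to 4.03 CPM (5 at 0) and 159 CPM (1 at 0). Lower in cKO were the 5 dendritic markers, at 495 and 142 CPM (1 at 0 in each), and the 8 epithelial markers, at 1651 CPM (none at 0) and 1248 CPM (3 at 0). The part of these markers in the result was not tested.

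Lymphatic endothelial cells, gated by Prox1 after the values were seen (20 control and 53 cKO cells), had the highest Igf2 of the gates used, 29.9 CPM (14.9 to 53.4) in control and 23.4 CPM (15.4 to 34.0) in cKO. These values rest on 11 and 27 UMIs, above cell-free levels of 1.55 and 3.06 CPM. Igfbp5 had 385 CPM in control against 1047 CPM in cKO in the same gate, at a ratio of 2.72 (2.28 to 3.26). Of 9 members with enough counts, 6 were at least 2-fold higher in cKO in this gate, where 9.77% of tested genes were. Of these, Igf1, Igfbp3, Igfbp6 and Igfbp7 were each under 20 UMIs in control and reached the minimum only through cKO. The gate held 368507 UMIs in control and 1155931 in cKO, so the count is a description only. Igf1r was 2.49-fold (1.77 to 3.59) and Igfbp7 5.28-fold (3.09 to 9.81) higher in cKO there, from 38 and 297 UMIs of Igf1r and 14 and 232 UMIs of Igfbp7. For Igfbp7, 1 cell held 42.9% of the control and 47.0% of the cKO UMIs. Igfbp3, from 4 and 150 UMIs, had a ratio of 12.0 (4.57 to 44.4), and Igf1, from 2 and 31 UMIs, a ratio of 4.94 (1.26 to 42.6). Igfbp6 had no UMI in control and 22 in cKO, at least 2.34-fold higher against the limit of 3 counts. Summed stromal markers, all 8 at 0 in control, stood at 558 CPM in the cKO gate, and their part in these ratios was not tested.

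Stromal cells are not uniform. They were gated once more by 1 UMI of Cilp, Hsd11b2, Inmt, Il6 or Cyp26b1, each a leading gene of a stromal population. These gates overlap, and they were added after the values of the whole class were seen. In control, Hsd11b2+ cells had the highest Igf1, 588 CPM (543 to 636), and the lowest Igfbp3, 262 CPM (232 to 295). Control Inmt+ cells had the highest Igfbp3, 1521 CPM (1470 to 1573), with 43.8 CPM (35.5 to 53.4) of Igf1, and Cyp26b1+ cells had the lowest Igf1, 33.3 CPM (18.6 to 54.8), with 1443 CPM (1334 to 1558) of Igfbp3. The intervals of these 2 gates overlap for both genes. The order was another in cKO. There Cyp26b1+ cells had the highest Igf1, 982 CPM (950 to 1015), followed by Hsd11b2+ cells with 930 CPM. Hsd11b2+ cells again had the lowest Igfbp3, 83.1 CPM (78.4 to 88.0), which overlaps the 90.7 CPM (81.1 to 101) of Cyp26b1+ cells. Inmt+ cells had 503 CPM of Igf1 and 176 CPM of Igfbp3. Hsd11b2 encodes an enzyme that inactivates glucocorticoids. After thinning to 3000 UMIs, 5.51% (3.72 to 7.82) of control and 22.1% (19.9 to 24.3) of cKO stromal cells had a Hsd11b2 UMI, and 8.75% (6.47 to 11.5) and 2.13% (1.44 to 3.03) an Inmt UMI. Without thinning, the shares were 10.6% and 41.5% for Hsd11b2, and 21.2% and 8.39% for Inmt.

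Igf1, Igfbp3 and Igfbp4 each differed in the same direction in every one of these gates, whose make-up differed between libraries. Another of the 5 genes was present in 71 of 134 control and 112 of 127 cKO Inmt+ cells, and in 81 of 143 control and 340 of 470 cKO Cilp+ cells, so the ratios do not compare like with like. The cKO to control ratio of Igf1 was 1.55 in Cilp+ cells, 1.58 in Hsd11b2+ cells, 11.5 in Inmt+ cells, 2.77 in Il6+ cells, 29.5 in Cyp26b1+ cells and 1.82 in cells with none of the 5 genes. The control value of Cyp26b1+ cells rested on 15 Igf1 UMIs in 32 cells, and the interval of the ratio was 17.9 to 52.8. The ratio of Igfbp3 was 0.259, 0.317, 0.116, 0.252, 0.0628 and 0.423 in the same order. The ratio of Igfbp4 was 1.88, 2.58, 3.24, 2.03, 2.94 and 2.30. In all 6 subsets Igf1 and Igfbp4 were thus higher and Igfbp3 lower in cKO. Igf1 passed 2-fold in 3 of them, Igfbp4 in 5 and Igfbp3 in all 6. The share of tested genes past 2-fold was 9.57% in Cilp+, 17.9% in Hsd11b2+, 14.3% in Inmt+, 11.3% in Il6+ and 25.7% in Cyp26b1+ cells, and 10.8% in cells with none. Igf1r, flat over the whole stroma, had ratios on both sides: 2.46 (1.71 to 3.66) in Hsd11b2+ cells and 0.604 (0.490 to 0.743) in Inmt+ cells.

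**Figure D3:**
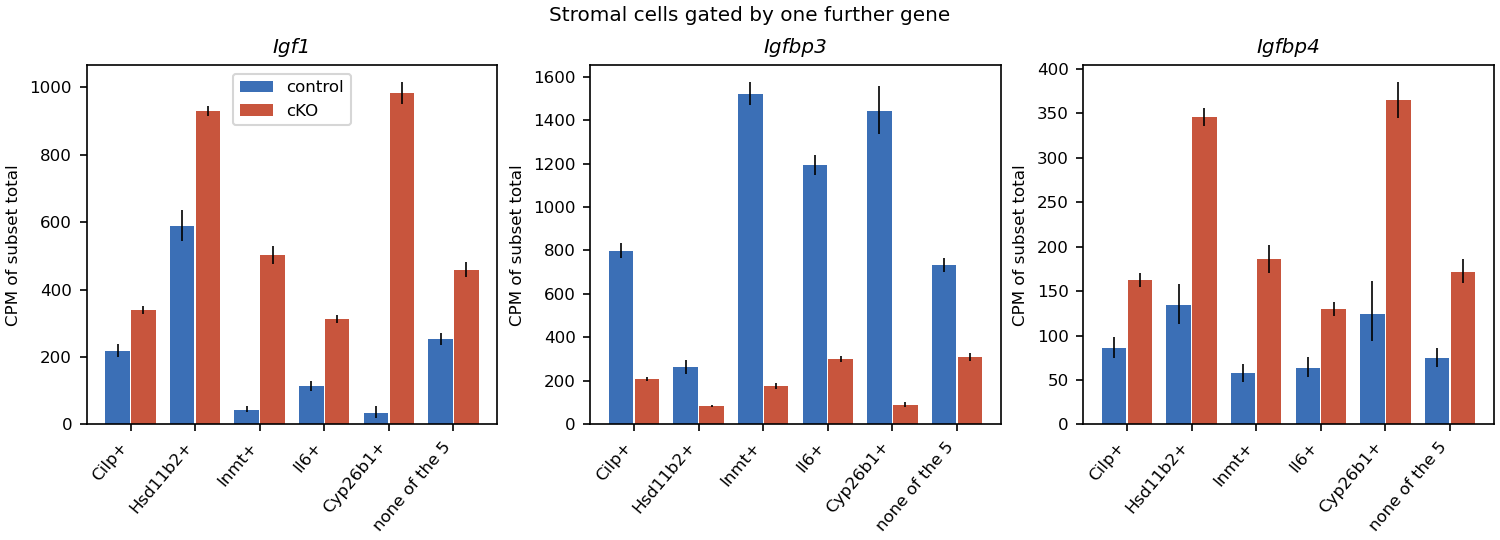
CPM of Igf1, Igfbp3 and Igfbp4 in stromal cells gated by 1 further gene, for control and cKO, with 95% Poisson intervals of counting error; the vertical axes differ and start at 0. In each gate the cKO bar is higher for Igf1 and Igfbp4 and lower for Igfbp3, and in control Hsd11b2+ cells Igf1 is at 588 CPM.

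To see whether single cells combined the members, stromal cells were thinned to 3000 UMIs, which kept 526 control and 1409 cKO cells and left out 105 and 104 shallower ones. At this depth 25.3% of control and 49.1% of cKO cells had Igf1, and 11.6% and 27.1% had at least 3 UMIs of it. For Igfbp3 the cells with at least 3 UMIs were 34.2% of control and 7.10% of cKO. The largest count in a single cell was nonetheless in cKO, 63 UMIs against 29 in control. Igfbp6 was carried by 55.3% of control and 70.5% of cKO cells. In control, Igfbp3 was carried by 54.2% of cells.

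**Figure D4:**
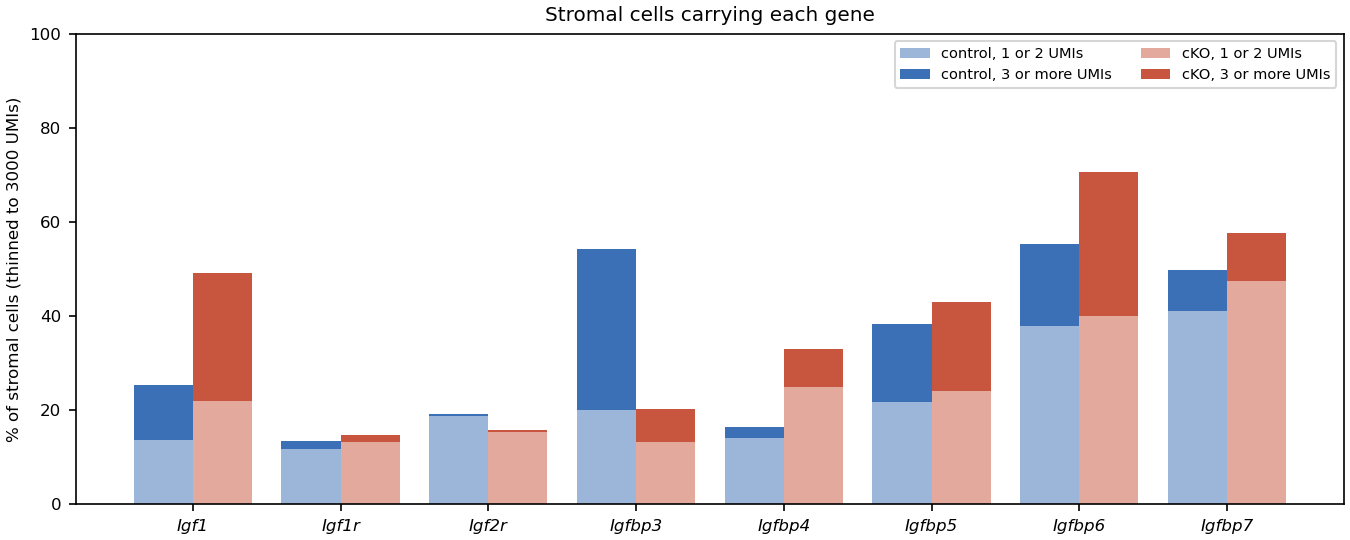
Share of stromal cells, thinned to 3000 UMIs, that carried 1 or 2 UMIs (pale) or at least 3 UMIs (full colour) of each of the 8 better detected genes, for 526 control and 1409 cKO cells. Igfbp3 cells with at least 3 UMIs were 34.2% of control and 7.10% of cKO, and Igf1 cells with at least 3 UMIs were 11.6% and 27.1%.

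Igf1 and Igfbp3 were carried by different stromal cells more often than their shares would give. In control 40 cells had both, where the product of the shares gives 72.1, and Pearson's r of log1p UMIs across cells was -0.27. In cKO 83 cells had both, where the product gives 140, and r was -0.21. Igfbp4 and Igf1 were found together more often in cKO: 316 cells had both, where the product gives 228, and r was 0.32. In control, 22 cells had both, where the product gives 21.7, and r was 0.06. Other pairs of the 8 genes had r between -0.13 and 0.19, which is weak in counts this sparse. Of these, Igf1 and Igf1r were found together in 7 control cells, where the product gives 18.0 (r -0.13). In cKO 120 cells had both, where the product gives 102 (r 0.06). Cells of 1 library share its depth and free RNA and are not replicates, so r is a description.

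**Figure D5:**
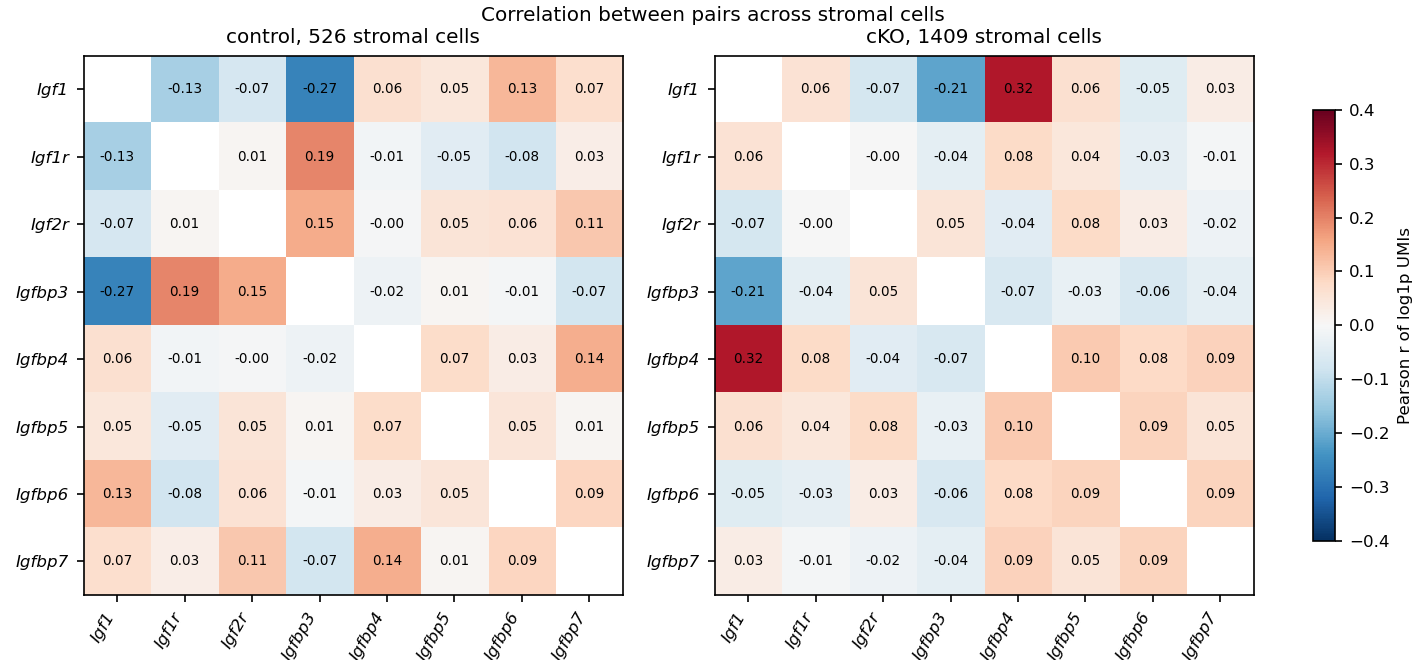
Pearson's r of log1p UMIs between pairs of 8 genes across stromal cells thinned to 3000 UMIs, in 526 control and 1409 cKO cells; red is positive and blue negative. Igf1 with Igfbp3 is negative in both libraries, -0.27 and -0.21, and Igf1 with Igfbp4 is 0.06 in control and 0.32 in cKO.

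The genes whose counts across stromal cells were most like those of a member were sought among 3964 genes, ranked by the lower r of both libraries. For Igf1 they were Col6a4 (r 0.40 in control and 0.37 in cKO), Col6a2 and Serpinh1, the first pair being collagen VI chains and the last a collagen chaperone. For Igfbp3 they included Fgfr1 (0.31 and 0.34), a fibroblast growth factor receptor, and Clec3b. For Igfbp5 they were the fibrillar collagens Col1a2, Col3a1 and Col1a1, and for Igfbp6 the genes Gsn, S100a6 and Dcn. For Igfbp7 they were Sparc, Col6a2 and Col6a1. All of these r values were at most 0.40.

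Of 30 further genes of the pathway (receptors, adaptors, kinases, proteases, binding protein relatives and Igf2 messenger RNA-binding proteins), 24 had enough counts in stromal cells. None was at least 2-fold higher in cKO and 1 was at least 2-fold lower, where 6.22% of all tested stromal genes were higher and 6.44% lower. The median log2 ratio was -0.02, equal to that of all genes. The gene lower in cKO was Igf2bp2, an RNA-binding protein, with 279 CPM in control against 131 CPM in cKO, at a ratio of 0.469 (0.445 to 0.495). Pappa, the protease that frees ligand from Igfbp4, had 168 and 134 CPM, at a ratio of 0.800 (0.752 to 0.851). Its relative Pappa2 had 13 and 6 UMIs, too few to be counted, with a ratio of 0.142 (0.0443 to 0.400). The insulin receptor gene Insr had 27.6 and 25.7 CPM, at a ratio of 0.930 (0.799 to 1.08), and the adaptor Irs1 8.60 and 14.4 CPM, at a ratio of 1.67 (1.30 to 2.19). Foxo1, a transcription factor restrained by the pathway, had 131 and 185 CPM, at a ratio of 1.41 (1.32 to 1.51).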

How the data were processed

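The deposited values were raw counts of UMIs per gene and barcode, made by the authors with Cell Ranger (version 6.1.1 on the mm10 genome, per the submitters' processing notes; the file headers name version 4). The annotation and counting options are not given in the sources used here. All columns were used (columns not used: 0). The libraries held 45035801 (control) and 57145553 (cKO) UMIs. Of barcodes with enough genes, 7.19% in control and 0.921% in cKO exceeded the mitochondrial limit. Cells in several gates (4.35% and 4.00%) entered no class. Doublets were not removed in the reported values. Cells with a doublet score above 0.25 (42 control and 63 cKO) were left out as an alternative. This common limit replaced automatic thresholds of 0.545 and 0.582.

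Counts were summed per class and library and divided by the class total (CPM). With 1 library per group no test was made. A gene was counted when its ratio passed 2-fold with at least 20 UMIs over both libraries. Where no count was seen, 3 counts were taken as the limit. All intervals are exact at 95% (Poisson, conditional binomial, Clopper-Pearson). The ratio and interval steps were run on simulated counts of 13679 genes for the stromal comparison. Of genes simulated at log2 1.5, 100% passed 2-fold, as did 2.20% of unchanged genes. Intervals held the true value for 95.7% to 98.0%. Each count was drawn as an independent Poisson value per gene and library, for which these intervals are exact, so the coverage was given in advance. No cells were simulated. The summing over cells and the gathering of UMIs in few cells were therefore not checked.

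The members and gene lists were chosen with earlier results of these data known. All members were named, and of the pathway list those past 2-fold in stromal cells with an interval that does not hold 1, with Pappa, Insr, Irs1 and Foxo1 added after their values were seen. Genes like a member were the 3 with the highest lower r among genes detected in at least 10% of thinned stromal cells, for members detected in at least 20%. 1 gene so chosen for Igfbp3 is not reported here. Alternatives were the fold and UMI limits, gate rules, cell filters, doublet removal, averaging, thinning, TMM and median-of-ratios factors, cell-free subtraction (5%) and leaving out the top cell. Gene positions came from GENCODE M21, where 99.6% of the 32285 identifiers were found. Software was Python 3.11.15, scanpy 1.11.5, scipy 1.17.1, pandas 2.3.3, numpy 2.4.6, matplotlib 3.10.9, R 4.3.3 and edgeR 4.0.16 (TMM factors only).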

Additional observations from a re-analysis of the deposited data

Results flagged for a closer look

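The Igfbp3 ratio lay on opposite sides of 1 in different classes. Its log2 ratio of cKO to control was -2.22 in stromal cells, 3.98 in epithelial cells and 3.36 in macrophages. The difference between classes was not tested, since each group was 1 library. The epithelial and macrophage values start from 4.49 and 1.51 CPM in control and lie below the cKO cell-free level of 80.5 CPM. The macrophage value rests on 3 and 18 UMIs, 72.2% of the latter in 1 cell, and was -0.36 with gates not exclusive. The epithelial value was 0.88 with gates not exclusive.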

How the results depend on the processing

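No paired analysis was possible because each group was 1 library. Of 133 values that answer a comparison or count, 109 kept their value within 1.5 times. Under every alternative tried, 2-fold counts in stromal cells stayed within that range. Over the 13 alternatives with a value, the stromal log2 ratio ran from 1.14 to 1.59 for Igf1, from -2.29 to -1.73 for Igfbp3 and from 1.08 to 1.67 for Igfbp4. In muscle cells, 1 member past 2-fold became 3 with a 1.5-fold limit, a gate of at least 2 UMIs, gates not exclusive, the gate gene with most UMIs or at least 1000 genes. It became 2 with no minimum on UMIs, at least 300 genes, a mitochondrial limit of 10% or cell-free RNA subtracted, and 0 when cells were averaged or thinned. In macrophages, 2 became 4 with a 1.5-fold limit, the gate gene with most UMIs, cells averaged or the top cell left out. They became 6 with cell-free RNA subtracted, and 1 with gates not exclusive, TMM factors or median-of-ratios factors. In the mesothelial gate 2 became 5 with a 1.5-fold limit and 4 when cells were averaged. In epithelial cells 5 became 3 with a gate of at least 2 UMIs and 0 after thinning, where the minimum of 20 UMIs applied to thinned counts. The cKO count of members higher in stromal than in epithelial cells went from 6 to 2 with gates not exclusive. The Igfbp3 log2 ratio in macrophages reversed to -0.36 with gates not exclusive. Both signs were also met for Igfbp6 and Igfbp7 in muscle, Igf1r in macrophages and Igfbp7 in epithelial cells. The reported intervals of these ratios did not hold 1. Except for the thinning minimum and the wider fold limits, the cause was not tested. Igf2 and Igfbp2 rest on few UMIs, and the mesothelial gate and the cKO epithelial gate (109 cells) on few cells.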

Other observations

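Among thinned stromal cells with Igf1, 45.7% had Igfbp4 in cKO and 16.5% in control, whereas among cells without Igf1 the shares were 20.8% and 16.3%. Igfbp3 was carried by 30.1% of control and 12.0% of cKO cells with Igf1, against 62.3% and 28.3% of those without it. Igf1r was carried by 5.26% of control cells with Igf1 and by 17.3% of such cells in cKO, against 16.3% and 12.1% of those without it.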
